A study of Mus musculus with 18 samples.

Results

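Troponin is the calcium switch of the striated muscle thin filament, and this account follows the 8 mouse genes that encode its subunits: Tnnt1, Tnnt2, Tnnt3, Tnni1, Tnni2, Tnni3, Tnnc1 and Tnnc2. They were taken by symbol from a table of raw read counts with 55450 gene identifiers, and all 8 were found and passed the filter on low counts that left 17912 genes for testing. The table holds polyA RNA sequencing of C2C12 cells, a mouse line that grows as myoblasts, single muscle precursor cells, and fuses into multinucleated myotubes when serum is lowered. There were 18 libraries in 6 groups of 3, from 3 lines that were each sampled while growing and again after 3 days in differentiation medium, when the cells are called myotubes. The control line (px) received the pX458 vector, which carries Cas9 and EGFP, without guides and was kept as a sorted cell population. Both edited lines received pX458 with a pair of guides against the proximal promoter of Meg3, were sorted on EGFP, diluted to single cells and genotyped for the deletion. One is labelled Dlk1-Dio3 overexpressor (2-4) and the other Dlk1-Dio3 knockout (2-7), and they are called the overexpressor and the knockout here. Each edited line is described as clonal, so a difference between lines cannot be told apart from a difference between clones. Nothing in the labels says that the 3 libraries of a group came from separate cultures, so the p-values measure the spread between these libraries, which may be technical. The design asks how the dosage of the Dlk1-Dio3 noncoding RNA cluster bears on muscle cell state and differentiation.

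Each troponin complex holds 3 subunits. Troponin T anchors the complex to tropomyosin, troponin I inhibits the interaction of actin with myosin, and troponin C binds calcium and relieves that inhibition. Adult slow skeletal fibres use Tnnt1, Tnni1 and Tnnc1, adult fast fibres use Tnnt3, Tnni2 and Tnnc2, and the adult heart uses Tnnt2, Tnni3 and Tnnc1, so that Tnnc1 serves both slow muscle and heart. Embryonic and regenerating skeletal muscle also transcribes the cardiac T gene Tnnt2, and differentiating myotubes usually carry slow and fast isoforms side by side.

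In GENCODE M21 on GRCm38 (mm10), 6 of the 8 genes lie in 3 pairs of a troponin I and a troponin T gene. Slow Tnni1 (chr1:135779434-135810989, plus strand) lies 25.4 kb before cardiac Tnnt2 (chr1:135836354-135852260, plus strand). Fast Tnni2 (chr7:142441808-142444410, plus strand) lies 54.4 kb before fast Tnnt3 (chr7:142498836-142516009, plus strand). Cardiac Tnni3 (chr7:4518305-4524229, minus strand) lies 1.92 kb before slow Tnnt1 (chr7:4504570-4516382, minus strand) in the direction of transcription. The troponin C genes stand alone, Tnnc1 at chr14:31208312-31211729 on the plus strand and Tnnc2 at chr2:164777161-164779967 on the minus strand. Of the exon bases of Tnnc2, 592 of 800 (74.0%) are also exon of Ube2c, a mitotic ubiquitin-conjugating enzyme gene on the opposite strand. Tnni3 shares 86 exon bases (4.17%) with Dnaaf3, a gene for assembly of ciliary dynein arms on the same strand. Whether counting used the strand of a read is not given in the sources used here, so the counts of Tnnc2 carry that uncertainty, and both partners' levels are given beside the results below.

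The promoter windows of 4 members are shown because the results turn on these genes: Tnnt1 and its close neighbour Tnni3, which had unlike levels, and the slow and fast troponin C genes, whose balance differed between lines. Each window runs from 250 bases before to 50 bases after a RefSeq transcription start (GRCm38.p6), is written 5′ to 3′ on the strand of the gene, and has capitals where a searched motif matched. The motifs, searched on both strands, were the E-box CANNTG bound by MyoD-family factors, MCAT (CATTCC, or GGAATG on the other strand) bound by TEAD factors, and the MEF2 and CArG motifs by their usual forms. The windows are Tnnt1 at chr7:4515926-4516225 (minus strand), Tnni3 at chr7:4522479-4522778 (minus strand), Tnnc1 at chr14:31208062-31208361 (plus strand) and Tnnc2 at chr2:164779685-164779984 (minus strand).
Tnnt1: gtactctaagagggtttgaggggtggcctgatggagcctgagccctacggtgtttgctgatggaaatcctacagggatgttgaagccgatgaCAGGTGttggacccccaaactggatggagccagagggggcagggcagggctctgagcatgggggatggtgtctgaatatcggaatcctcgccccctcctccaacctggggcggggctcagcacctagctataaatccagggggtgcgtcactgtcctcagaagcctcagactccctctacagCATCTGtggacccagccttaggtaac
Tnni3: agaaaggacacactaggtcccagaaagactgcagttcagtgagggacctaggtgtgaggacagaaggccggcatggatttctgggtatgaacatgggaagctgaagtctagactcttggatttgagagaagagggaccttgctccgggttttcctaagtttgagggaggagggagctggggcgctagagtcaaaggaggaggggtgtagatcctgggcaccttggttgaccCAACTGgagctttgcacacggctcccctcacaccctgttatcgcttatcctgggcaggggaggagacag
Tnnc1: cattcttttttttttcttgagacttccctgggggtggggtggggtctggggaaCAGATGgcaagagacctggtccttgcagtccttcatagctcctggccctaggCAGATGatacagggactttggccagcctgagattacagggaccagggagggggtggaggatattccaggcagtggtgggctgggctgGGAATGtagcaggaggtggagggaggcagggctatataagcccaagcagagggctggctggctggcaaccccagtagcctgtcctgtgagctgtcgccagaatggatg
Tnnc2: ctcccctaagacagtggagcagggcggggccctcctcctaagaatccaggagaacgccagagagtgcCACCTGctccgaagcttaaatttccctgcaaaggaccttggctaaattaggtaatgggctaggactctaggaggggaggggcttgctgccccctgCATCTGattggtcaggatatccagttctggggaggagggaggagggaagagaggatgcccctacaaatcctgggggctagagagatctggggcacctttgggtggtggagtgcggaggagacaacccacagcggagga
Tnnt1, Tnnc1 and Tnnc2 each held 2 E-boxes in these letters and Tnni3 held 1. Tnnc1 also held 1 MCAT match, from 58 to 53 bases before the start. RefSeq windows were matched for 6 of the 8 members, with 8 windows in all, since Tnnt2 and Tnni1 have 2 each, and Tnni2 and Tnnt3 were not matched. The first Tnnt2 window held 5 E-boxes and 1 MCAT match, and the first Tnni1 window held 4 E-boxes. None of the 8 windows held a MEF2 or CArG match. Among all 32851 windows of this length, 72.3% held an E-box, 14.7% an MCAT match, 0.557% a MEF2 match and 1.63% a CArG match. A match is only a run of letters, and no binding was measured here.

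The libraries held between 41544358 and 79140702 counted reads. Meg3, whose promoter was targeted, had 0 counts in all control and knockout libraries and 5222 to 7763 in the overexpressor libraries, so it does not separate the line labelled knockout from the control. Levels are given as CPM, a gene's counts for each 1000000 counts of the library, after scaling by trimmed mean of M-values, as mean ± SD with n = 3 libraries. Adjusted p-values come from edgeR's quasi-likelihood test with Benjamini-Hochberg adjustment over all 17912 genes, and a gene is said to have risen, fallen or been called at an adjusted p under 0.05. Of the 9 skeletal myotube markers used to check the labels (among them Myog, Mymk, Ckm and Myh3), all 9 rose from control myoblasts to control myotubes, beside 62.8% of all genes called. All 9 also rose in knockout against control myoblasts (median log2 4.68), beside 53.0% of all genes called. Their sum was 1142 to 1341 CPM in control, 2318 to 3006 in overexpressor and 11682 to 14567 CPM in knockout myoblasts. In control myotubes it was 15761 to 16221 CPM. The 5 proliferation markers, among them Mki67 and Top2a, summed to between 935 and 1311 CPM in every myoblast library and to between 80.2 and 223 CPM in every myotube library. In bulk RNA, more cells of a kind and more RNA per cell cannot be told apart. Some libraries stood apart from the others of their group: counts of overexpressor myotube library C differed from those of A and B at a chi-square per degree of freedom of 118 and 112, against 22.8 between A and B, and those of overexpressor myoblast B from A and C at 37.3 and 33.0, against 8.46 between A and C. Knockout myotube libraries A and C differed at 55.0, while B differed from them at 20.96 and 24.0. Without overexpressor myotube C, the number of troponin genes called went from 7 to 4 between the edited lines in myotubes and from 5 to 6 for the response of the overexpressor against the control. Without overexpressor myoblast B it went from 8 to 7 between the edited lines in myoblasts and from 5 to 4 for that response. Neither omission moved the other counts of called troponin genes, and the genes concerned are named with their results.

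Before differentiation the 8 genes together took 0.0252% ± 0.0041 of all reads in the control, 0.0214% ± 0.0038 in the overexpressor and 0.465% ± 0.0504 for the knockout (SD, n = 3). Afterwards their share was 0.721% ± 0.0369, 1.59% ± 0.078 and 1.89% ± 0.144 in the same order of lines. Knockout myoblasts thus stood between control myoblasts and control myotubes in total troponin RNA, with no overlap with either.

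Control differentiation gives the frame for the rest. In the control line 7 of the 8 troponin genes rose from myoblasts to myotubes and 1, cardiac Tnni3, fell, against 62.8% of all genes called in this comparison. The fast genes rose by log2 6.09 ± 0.19 for Tnnt3, 6.40 ± 0.24 for Tnni2 and 6.34 ± 0.21 for Tnnc2 (estimate ± SE). Slow and cardiac Tnnc1 rose as far, by 6.35 ± 0.22, and slow Tnni1 by 5.80 ± 0.26. Slow Tnnt1 (3.77 ± 0.12) and cardiac Tnnt2 (3.80 ± 0.10) rose less, and per kilobase of exon both stood above Tnnt3 in control myoblasts (20.6 ± 2.24 and 13.8 ± 1.57 against 8.63 ± 1.71 CPM per kilobase). The largest adjusted p among these 7 was 3.65e-11, for Tnni1.

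Troponin T: cardiac Tnnt2 stood in control myoblasts at 108, 119 and 94.5 CPM. It was lower in overexpressor myoblasts, at 50.8, 49.5 and 53.2 CPM, and higher in knockout myoblasts, at 913, 1099.6 and 999 CPM. The 3 myoblast groups did not overlap. In myotubes it stood at 1414, 1386 and 1681 CPM in the control, 3041, 2876 and 3112 CPM in the overexpressor and 3929, 3889.6 and 4117 CPM in the knockout, again with no overlap.

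Slow Tnnt1 was at 45.5, 50.4 and 40.5 CPM in control myoblasts and at 40.5, 33.4 and 42.2 CPM in overexpressor myoblasts, and these 2 groups overlapped. Knockout myoblasts held 256, 326 and 267 CPM. In myotubes Tnnt1 was highest in the overexpressor, at 1976, 1807 and 1803 CPM, followed by the knockout at 1281, 1342 and 1492 CPM and the control at 586, 603 and 669 CPM. It was the one member whose highest group was the overexpressor without overlap with the next group.

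Fast Tnnt3 started low, at 13.0, 16.7 and 11.4 CPM in control myoblasts and 22.1, 17.3 and 28.6 CPM in overexpressor myoblasts, and the lowest overexpressor library lay just above the highest control library. Knockout myoblasts held 519, 662 and 530.2 CPM. In myotubes the control held 913, 884 and 1001 CPM, the overexpressor 2755, 2663 and 2726 CPM and the knockout 2379, 2527 and 2768 CPM. The edited lines overlapped each other in myotubes and both lay above the control.

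Troponin I: slow Tnni1 was at 22.5, 36.8 and 22.8 CPM in control myoblasts, 50.1, 32.7 and 62.7 CPM in overexpressor myoblasts and 987, 1199 and 1002 CPM in knockout myoblasts. The first 2 groups overlapped and the knockout stood apart. Myotubes held 1581, 1588 and 1411 CPM in the control, 3140.4, 2812.5 and 2627 CPM in the overexpressor and 4017, 4239 and 5305 CPM in the knockout, in separate ranges. The knockout myotubes averaged 4520.5 ± 689 CPM.

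Fast Tnni2 was at 6.14, 9.57 and 4.92 CPM in control myoblasts and at 11.6, 8.54 and 13.4 CPM in overexpressor myoblasts, with overlap. Knockout myoblasts held 233, 297 and 241 CPM. Myotubes held 568, 590 and 590 CPM in the control, 1384.5, 1226 and 1254 CPM in the overexpressor and 1528, 1698 and 2036 CPM in the knockout, with no overlap. The means of Tnni2, like those of Tnni1, ran from control myoblasts through overexpressor myoblasts, knockout myoblasts, control myotubes and overexpressor myotubes up to knockout myotubes.

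Cardiac Tnni3 was the low member throughout, at raw counts of 11 to 486 per library. It was at 0.674, 0.615 and 1.00 CPM in control myoblasts, 0.958, 0.819 and 1.11 CPM in overexpressor myoblasts and 1.29, 1.71 and 1.37 CPM in knockout myoblasts. Control myotubes held the lowest levels, 0.208, 0.275 and 0.505 CPM, below every control myoblast library. Overexpressor myotubes held 1.89, 2.20 and 2.01 CPM and knockout myotubes 8.30, 7.61 and 8.34 CPM, so the myotube lines were fully separate and in the order that 5 of the other 7 members showed.

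Troponin C: slow and cardiac Tnnc1 was at 24.6, 36.5 and 22.1 CPM in control myoblasts and at 20.2, 16.5 and 25.6 CPM in overexpressor myoblasts, with overlap. Knockout myoblasts held 707, 904 and 745 CPM. Myotubes held 2152, 2249.7 and 2407 CPM in the control, 2766, 2504 and 2461 CPM in the overexpressor and 3101, 3280.3 and 4034 CPM in the knockout. These ranges did not overlap, although the control and overexpressor means, 2269 ± 129 and 2577 ± 165 CPM, were only 1.14-fold apart.

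Fast Tnnc2 was at 5.60, 8.17 and 5.70 CPM in control myoblasts and at 11.97, 8.30 and 14.97 CPM in overexpressor myoblasts, where the lowest library was just above the highest control. Knockout myoblasts held 413, 520.0 and 426 CPM and control myotubes 509, 521 and 552 CPM, and these 2 groups overlapped. Overexpressor myotubes held 1643, 1462 and 1486.5 CPM and knockout myotubes 2336, 2379 and 2832 CPM, in separate ranges. Ube2c, its opposite-strand partner, went the other way with differentiation, from 141 ± 6.85, 204 ± 14.6 and 129 ± 7.22 CPM in control, overexpressor and knockout myoblasts to 16.6 ± 1.95, 33.5 ± 5.36 and 44.3 ± 2.92 CPM in the myotubes. Its part in the Tnnc2 counts was not tested.

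**Figure D1:**
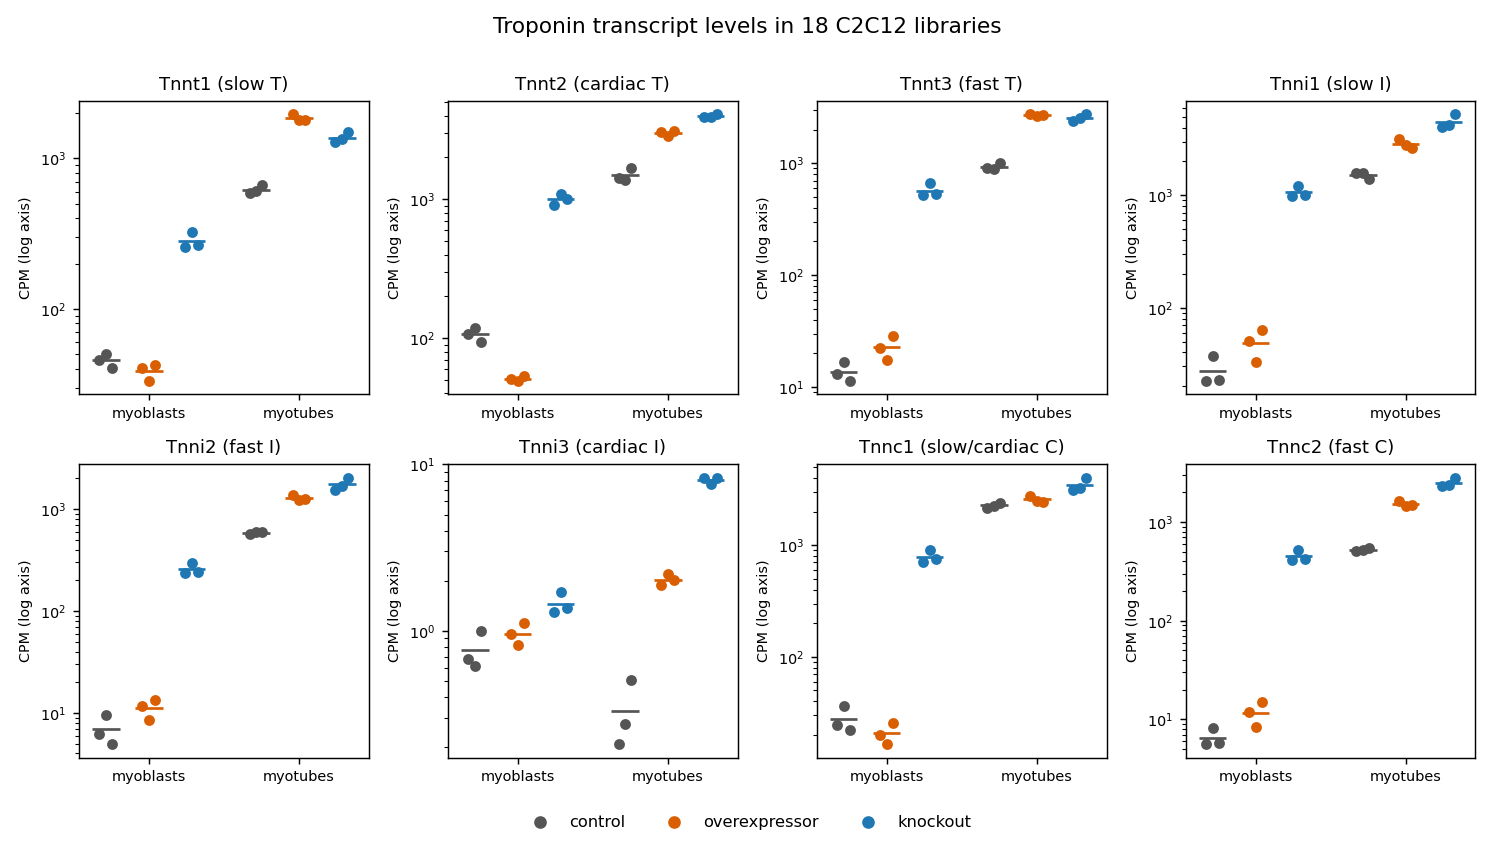
Levels of the 8 troponin genes in 18 libraries, in CPM on a log axis, with myoblast groups on the left and myotube groups on the right of each panel. Points are libraries and bars are means of 3. Knockout myoblasts lie far above the other myoblasts for every gene except Tnni3, which stays between 0.208 and 8.34 CPM in all libraries.

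In knockout myoblasts all 8 troponin genes rose against control myoblasts, where 53.0% of all genes were called. The median log2 difference of the 8 was 5.02, beside 0.0188 over all genes tested. Fast Tnnc2 rose 69.7-fold (log2 6.12 ± 0.21) and fast Tnnt3 41.7-fold (5.38 ± 0.18). Slow Tnni1 and fast Tnni2 rose by like amounts, 38.8-fold (5.28 ± 0.25) and 37.2-fold (5.22 ± 0.23), and Tnnc1 rose 28.3-fold (4.82 ± 0.20). Cardiac Tnnt2 rose 9.38-fold, slow Tnnt1 6.23-fold and cardiac Tnni3 1.93-fold, the last at an adjusted p of 0.00191, against 1.80e-10 or less for the other 7.

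Knockout myoblasts were still in growth conditions, and their levels of the 7 abundant troponin genes reached between 34.6% and 85.9% of those of control cells after 3 days of differentiation. As a share of the control myotube mean, the knockout myoblast mean was 85.9% for Tnnc2, 69.6% for Tnni1, 67.2% for Tnnt2, 61.2% for Tnnt3, 45.7% for Tnnt1, 44.1% for Tnni2 and 34.6% for Tnnc1. Tnnc2 was the one member whose ranges in these 2 groups overlapped. How many of all genes had separate ranges in this pair was not counted. For Tnni3 the knockout myoblasts stood at 443% of the control myotubes. The sum of the proliferation markers was 935 to 999 CPM in knockout myoblasts and 80.2 to 111 CPM in control myotubes. This pair of groups differs in both line and stage and was set side by side without a test.

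In overexpressor myoblasts 5 of 8 genes were called against control myoblasts (4 up and 1 down), beside 40.4% of all genes. The fast genes Tnnt3, Tnni2 and Tnnc2 rose 1.65-fold, 1.62-fold and 1.81-fold, with adjusted p of 0.00158, 0.0149 and 0.00161, and slow Tnni1 rose 1.77-fold (adjusted p = 0.00718). Cardiac Tnnt2 fell 2.09-fold (log2 -1.06 ± 0.09, adjusted p = 2.32e-08). Slow Tnnt1 (log2 -0.23 ± 0.11, adjusted p = 0.0957), Tnnc1 (-0.42 ± 0.18, adjusted p = 0.0804) and Tnni3 (0.34 ± 0.24, adjusted p = 0.289) did not pass. Tnnt1 passed with scaling by library totals (adjusted p = 0.0421) and without control library C (log2 -0.31), and Tnnc1 passed with DESeq2's test (adjusted p = 0.0468) and without control library C (0.0273) or overexpressor library C (0.0220). The Tnni2 call was lost when control library A (adjusted p = 0.0628), control library C (0.0663) or overexpressor library C (0.0751) was left out.

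Set directly against each other, overexpressor myoblasts were lower than knockout myoblasts for all 8 genes, where 52.6% of all genes were called. The differences ran from 7.32-fold for Tnnt1 and 19.6-fold for Tnnt2 to 37.9-fold for Tnnc1 and 38.6-fold for Tnnc2, with 25.2-fold for Tnnt3, 21.9-fold for Tnni1 and 23.0-fold for Tnni2. Tnni3 was 1.52-fold lower (adjusted p = 0.0308), and this call was lost without overexpressor library A (adjusted p = 0.0698), overexpressor library B (0.112) or knockout library B (0.135). The comparisons among lines share libraries and are not independent of each other.

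In myotubes both edited lines stood above the control. Against it, 7 of 8 genes rose in the overexpressor and none fell, beside 57.1% of all genes called. Slow Tnnt1 rose 3.01-fold (log2 1.59 ± 0.11), fast Tnnt3 2.91-fold (1.54 ± 0.15) and fast Tnnc2 2.90-fold (1.54 ± 0.17). Fast Tnni2 rose 2.21-fold, cardiac Tnnt2 2.02-fold and slow Tnni1 1.87-fold, and cardiac Tnni3, from its low level, 6.06-fold. Tnnc1 was the exception, at log2 0.18 ± 0.17 (adjusted p = 0.388).

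In knockout myotubes all 8 genes rose against control myotubes, beside 68.0% of all genes called. Tnnc2 rose 4.77-fold (log2 2.25 ± 0.17) and Tnnc1 1.53-fold (0.61 ± 0.17, adjusted p = 0.00544), the largest and smallest rises among the 7 abundant members. Between them lay Tnni2 (3.01-fold), Tnni1 (2.96-fold), Tnnt3 (2.74-fold), Tnnt2 (2.66-fold) and Tnnt1 (2.21-fold). Tnni3 rose 24.1-fold (log2 4.59 ± 0.24, adjusted p = 1.31e-11).

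In myotubes, 5 of the 9 skeletal myotube markers rose in the overexpressor and 8 in the knockout against the control, and none fell. Of all genes 57.1% and 68.0% were called (26.2% and 31% higher), and the overexpressor count was near its share called. Their sum was 24838 to 27286 CPM in overexpressor and 35436 to 42991.5 CPM in knockout myotubes, against 15761 to 16221 CPM in the control. Markers of other cells and of growth also differed between lines, and not all in the direction of the troponins. The fibroblast sum was highest in control myotubes. Of 5 smooth muscle markers, 4 rose in each edited line in myotubes, beside 57.1% of all genes called in the overexpressor and 68.0% in the knockout. The sum of the 5 was 1951 to 2321 CPM in control, 4953 to 6283 in overexpressor and 7486 to 8602 CPM in knockout myotubes. Most of that was Acta2, the smooth muscle actin, whereas Myh11, the smooth muscle myosin, had a mean of at most 0.153 CPM in any group. In myoblasts the smooth muscle sum was 4263 to 4401 CPM in the control, 1543 to 1846 in the overexpressor and 7463 to 7703 CPM in the knockout. Of 5 fibroblast markers 4 were tested, and in myotubes all 4 fell in the overexpressor and 2 fell in the knockout. Beside these stood 57.1% and 68.0% of all genes called (30.9% and 37% lower). The knockout count, 2 of 4, lay below the share called and above the share lower. Col1a1, a collagen chain, was at 6182 ± 544 CPM in control, 395 ± 88.7 in overexpressor and 1437 ± 126 CPM in knockout myotubes, and the sum of the list ran at 5775 to 6834, 319 to 495 and 1366 to 1599 CPM. In myoblasts that sum was 788 to 838 CPM in the control, at most 45.8 in the overexpressor and 388 to 613 CPM in the knockout, and Thy1 was at or near 0 in every group. Of 5 adipocyte markers only Fabp4 and Lpl were tested, and the sum of the list was at most 45.8 CPM in any library. All 5 proliferation markers rose in overexpressor myotubes and 4 rose in knockout myotubes against the control, beside 57.1% and 68.0% of all genes called. Their sums were 80.2 to 111 CPM in control, 163 to 217 in overexpressor and 175 to 223 CPM in knockout myotubes. In myoblasts none was called in the overexpressor and 2 fell in the knockout, beside 40.4% and 53.0% of all genes called. The part of these markers in the troponin differences was not tested.

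**Figure D2:**
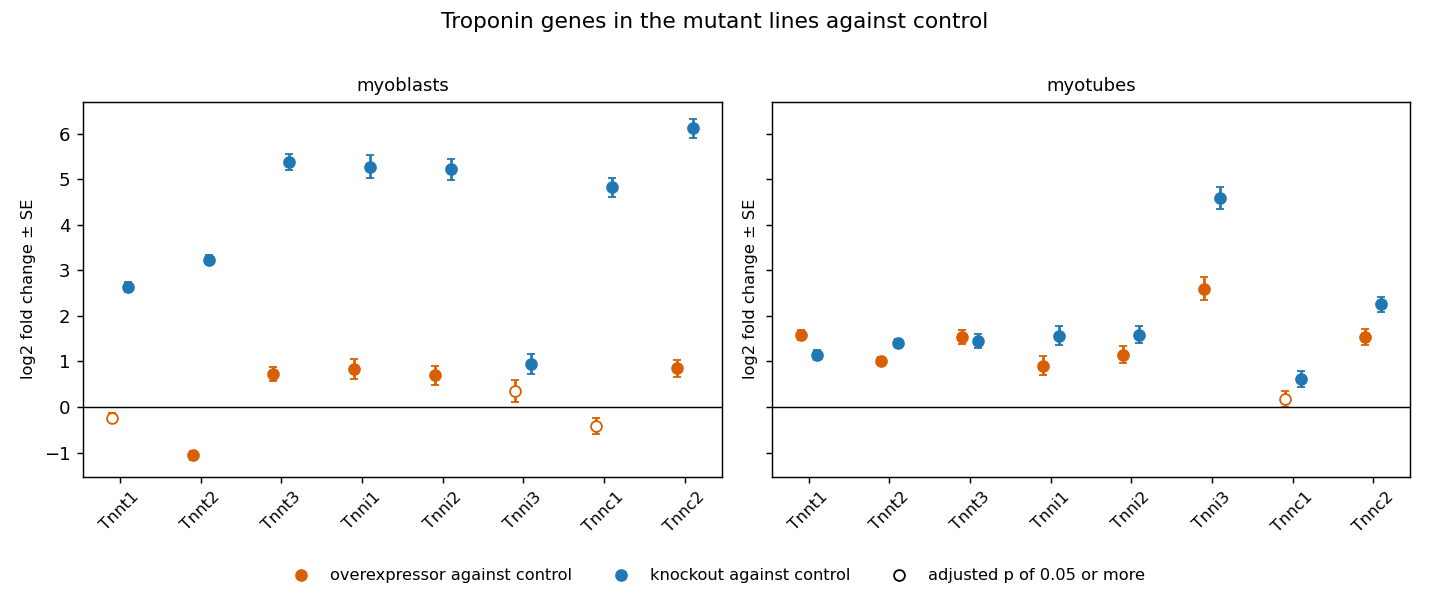
Log2 fold change ± SE of each troponin gene in the overexpressor and the knockout against the control, in myoblasts (left) and myotubes (right), from edgeR with 3 libraries a group. Filled points passed an adjusted p of 0.05. The knockout points lie between 0.94 and 6.12 in myoblasts and between 0.61 and 4.59 in myotubes.

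Between the edited lines in myotubes, 7 of 8 genes were called, 1 higher and 6 lower in the overexpressor, beside 59.7% of all genes. Tnnt1 was 1.36-fold higher in the overexpressor (log2 0.44 ± 0.10, adjusted p = 0.00149) and Tnnt2 lower by log2 -0.40 ± 0.09 (adjusted p = 0.000825), while Tnnt3 differed by log2 0.09 ± 0.15 (adjusted p = 0.639). Tnnc2 was 1.64-fold lower (adjusted p = 0.00147), Tnni1 1.58-fold lower (adjusted p = 0.0147) and Tnni3 3.97-fold lower (adjusted p = 1.28e-07). Tnni2 (1.36-fold lower, adjusted p = 0.0479) and Tnnc1 (1.35-fold lower, adjusted p = 0.0430) lay at the threshold and lost their calls with scaling by library totals (adjusted p = 0.1098 and 0.107), with no filter on low counts (0.146 and 0.137), and in 12 and 10 of the 18 fits that left out 1 library (adjusted p up to 0.192 and 0.185). The count fell to 4 of 8 without overexpressor myotube library C or without knockout myotube library C, where Tnni1 was lost as well (adjusted p = 0.0621 and 0.0736). Knockout myotube library C was the highest of its group for all 8 members.

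The rise on differentiation itself differed between lines. In the overexpressor all 8 genes rose from myoblasts to myotubes, beside 62.8% of all genes called, from log2 5.59 ± 0.13 for Tnnt1 to 7.03 ± 0.21 for Tnnc2 among the 7 abundant members. In the knockout all 8 rose as well, beside 65.4% of all genes, but from a high start: the 7 abundant members rose by between log2 1.99 ± 0.09 for Tnnt2 and 2.77 ± 0.20 for Tnni2. Tnni3 rose by 1.08 ± 0.22 in the overexpressor and 2.47 ± 0.20 in the knockout, whereas in the control it fell (log2 -1.18 ± 0.28, adjusted p = 0.00117).

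**Figure D3:**
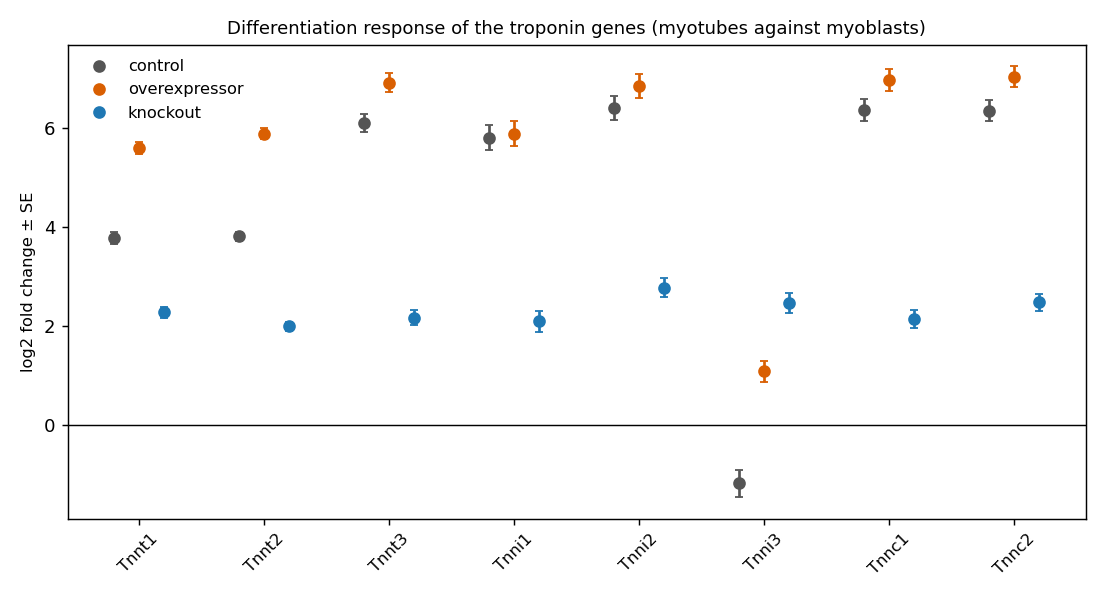
Log2 fold change ± SE from myoblasts to myotubes for each troponin gene in the 3 lines, from edgeR with 3 libraries a group, all past an adjusted p of 0.05. The knockout points lie between 1.99 and 2.77, while the control and overexpressor points of the 7 abundant genes lie between 3.77 and 7.03. Tnni3 lies at -1.18 in the control.

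The difference of these responses was tested as an interaction. The response of the knockout was smaller than that of the control for 7 genes and larger for Tnni3, so that 8 of 8 were called beside 50.1% of all genes. The 7 differences ran from log2 -1.49 ± 0.15 for Tnnt1 and -1.82 ± 0.13 for Tnnt2 to -3.93 ± 0.22 for Tnnt3 and -4.21 ± 0.26 for Tnnc1. Tnni3 differed by 3.64 ± 0.34. Because control myoblasts enter both this value and the myoblast comparison above, the smaller response and the higher start are not separate observations.

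The response of the overexpressor was larger than that of the control for 5 of 8 genes, beside 39.0% of all genes called, and no gene had a smaller response. All T genes were among them, Tnnt2 by log2 2.07 ± 0.13, Tnnt1 by 1.82 ± 0.15 and Tnnt3 by 0.81 ± 0.22 (adjusted p = 4.41e-10, 2.12e-08 and 0.00698). Tnni3 differed by 2.26 ± 0.35 and Tnnc2 by 0.69 ± 0.25 (adjusted p = 0.0385), the latter call being lost with no filter on low counts (adjusted p = 0.0857) and on leaving out any of these 7 libraries singly: control myoblast B, overexpressor myoblast A or B, control myotube A, B or C, or overexpressor myotube A (adjusted p from 0.0504 to 0.131). Tnni1 (0.08 ± 0.30), Tnni2 (0.45 ± 0.28) and Tnnc1 (0.60 ± 0.25, adjusted p = 0.0702) did not pass, though Tnnc1 passed with DESeq2's size factors (0.0358), DESeq2's test (0.0133), library totals (0.0173), and without control myoblast C (0.0263), overexpressor myoblast C (0.0210) or overexpressor myotube C (0.0409). Against the knockout, the overexpressor response was larger for 7 genes and smaller for Tnni3 (-1.39 ± 0.29), 8 of 8 called beside 46.7% of all genes, with differences from log2 3.31 ± 0.15 for Tnnt1 to 4.81 ± 0.26 for Tnnc1.

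Ratios between isoforms of 1 subunit within a library need no scaling between libraries, and they were compared among the 3 lines by an exact permutation test over every assignment of 9 libraries to the lines, separately in myoblasts and myotubes. Benjamini-Hochberg adjustment covered these 8 tests, and the smallest unadjusted p this design allows is 0.00357. Ratios are of raw counts, not per length, so a ratio of 1 does not mean equal numbers of transcripts. Of 36 pairs of groups compared, 26 had ratios that did not overlap, each at 0.1, the smallest p that 3 against 3 libraries allow.

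The troponin C balance set the control apart at both stages. The Tnnc1 to Tnnc2 ratio was 4.40, 4.47 and 3.87 in control myoblasts, 1.68, 1.99 and 1.71 in overexpressor myoblasts and 1.71, 1.74 and 1.75 in knockout myoblasts. Control myotubes had 4.23, 4.32 and 4.36, overexpressor myotubes 1.68, 1.71 and 1.66 and knockout myotubes 1.33, 1.38 and 1.42. The control lay above both edited lines without overlap at each stage (exact permutation test among lines, adjusted p = 0.0367 in myoblasts and 0.0143 in myotubes). The control ratio was about the same before and after differentiation, with means of 4.24 ± 0.329 and 4.30 ± 0.0689, and the ranges overlapped. Beside these 2 control means stood Ube2c, which overlaps Tnnc2, at 141 and 16.6 CPM.

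The troponin T balance moved with differentiation and with line. In myoblasts the slow to fast ratio Tnnt1 to Tnnt3 was 3.36 ± 0.296 for the control, 1.75 ± 0.236 for the overexpressor and 0.497 ± 0.00577 for the knockout (exact permutation test, adjusted p = 0.0143). In myotubes it was 0.664 ± 0.0209, 0.686 ± 0.0286 and 0.536 ± 0.00445, with the knockout lowest and the other 2 lines overlapping (adjusted p = 0.0286). Knockout myoblasts were thus below every myotube group in this ratio. Cardiac to fast, Tnnt2 to Tnnt3, was 7.91 ± 0.682 in control myoblasts, 2.34 ± 0.498 in overexpressor and 1.77 ± 0.112 in knockout myoblasts (adjusted p = 0.0190). In myotubes it was 1.60 ± 0.0708, 1.11 ± 0.0311 and 1.56 ± 0.0841, so that here the overexpressor stood apart and the control and the knockout overlapped (adjusted p = 0.0286).

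The troponin I balance differed least. The slow to fast ratio Tnni1 to Tnni2 was 4.04 ± 0.514, 4.27 ± 0.419 and 4.14 ± 0.0983 in control, overexpressor and knockout myoblasts, all overlapping (exact permutation test, adjusted p = 0.743). In myotubes it was 2.62 ± 0.205, 2.22 ± 0.108 and 2.58 ± 0.0706, lowest in the overexpressor (adjusted p = 0.0367). This call was lost when any 1 of 7 of the 9 myotube libraries was left out, that is all but control A and C (adjusted p from 0.0571 to 0.0980). In every line the myotube ratios lay below the myoblast ratios without overlap.

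**Figure D4:**
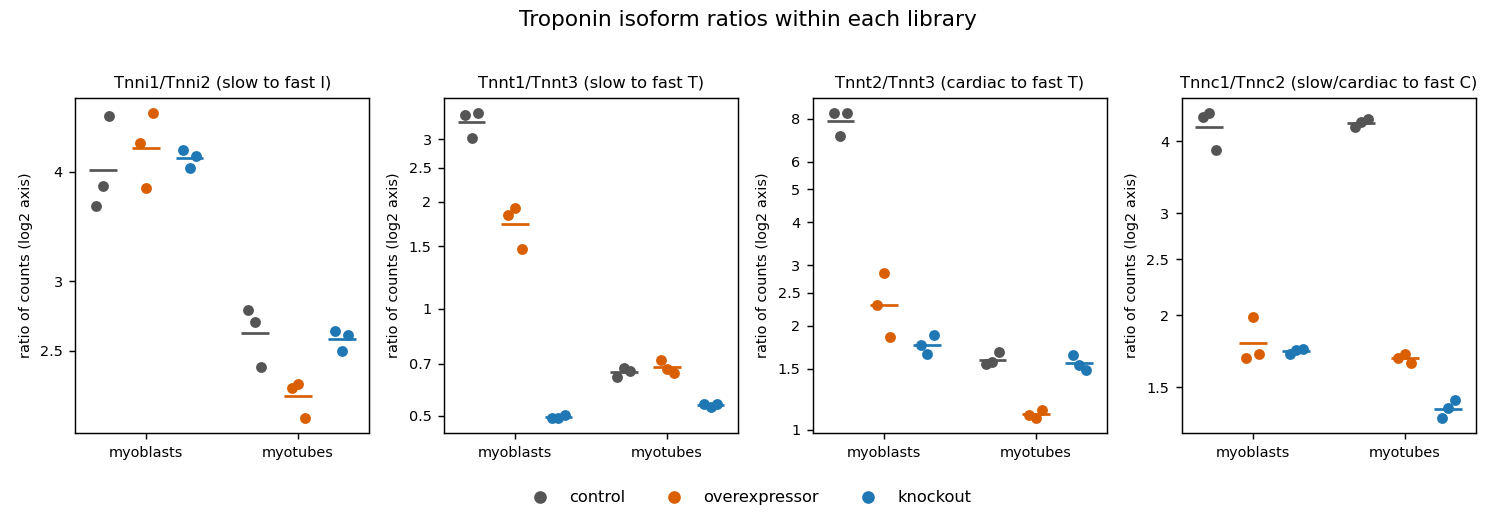
Ratio of raw counts of 2 isoforms within each library, on a log2 axis, for myoblasts (left) and myotubes (right) of the 3 lines. Points are libraries and bars are means of the log2 ratios. Tnnc1/Tnnc2 is at or above 3.87 in all control libraries and at or below 1.99 in all others, and Tnni1/Tnni2 overlaps among lines in myoblasts.

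Levels of different genes were compared per kilobase of exon, as each isoform's share of the summed CPM per kilobase of its subunit. Fast Tnnt3 had the smallest T share in control myoblasts, 19.9% ± 1.45, against 48.0% ± 0.915 for Tnnt1 and 32.1% ± 0.567 for Tnnt2. It had 36.8% ± 3.71 in overexpressor and 58.2% ± 0.900 in knockout myoblasts, and between 55.5% and 58.7% on average in all 3 myotube groups. The knockout myoblast mean thus lay within the span of the myotube means for this isoform, while its Tnnt1 share, 20.8% ± 0.123, lay below the myotube means of 22.6% to 28.6%.

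Slow Tnni1 held 60.5% to 63.2% of troponin I in the 3 myoblast groups and 47.9% to 52.1% in the 3 myotube groups, with nearly all of the remainder in fast Tnni2. Cardiac Tnni3 had 3.21% ± 1.53 in control myoblasts and 0.0198% ± 0.00998 in control myotubes, the lowest share of any member. Tnnc1 held 76.5% ± 1.44 of troponin C in control myoblasts and 76.8% ± 0.287 in control myotubes, and 51.4% to 57.9% in the 4 groups of edited cells. Exon lengths were unions over annotated transcripts. With the longest transcript instead, the control myoblast shares were 14.4% for Tnnt3 and 80.4% for Tnnc1. The union of Tnnt2 is 7752 bases against 3330 for its longest transcript, so its share in particular depends on this choice.

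Tnni3 had the pattern least like the others. Across the 18 libraries the log2 CPM of the other 7 members correlated with each other at Pearson r from 0.968 to 0.998, and Tnni3 with them at 0.373 to 0.506, values that describe libraries sharing lines and stages. Tnnt1, the troponin gene nearest to it at 1.92 kb, rose 13.6-fold from control myoblasts to control myotubes while Tnni3 fell 2.26-fold. Dnaaf3, which shares 86 exon bases with Tnni3 at its other end, was at 4.08 ± 0.351, 6.16 ± 0.481 and 1.40 ± 0.0867 CPM in control, overexpressor and knockout myoblasts and at 0.113 ± 0.0486, 1.13 ± 0.0676 and 0.600 ± 0.256 CPM in the myotubes. Like Tnni3, Dnaaf3 fell in control myotubes and was higher in the edited myotubes than in these. Unlike Tnni3, its mean was lower in myotubes than in myoblasts in both edited lines, and lower in knockout than in overexpressor myotubes. It was also lower in knockout than in control myoblasts (log2 -1.54 ± 0.20), where Tnni3 was higher. The part of Dnaaf3 in the Tnni3 counts was not tested.

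A cardiac troponin gene in a skeletal line calls for the cardiac markers beside it. The 9 cardiomyocyte markers summed to 34.3 to 37.8 CPM in control, 40.9 to 47.4 in overexpressor and 92.9 to 110 CPM in knockout myoblasts, and to 88.2 to 101, 115 to 133 and 204 to 248 CPM in the myotubes. Myh6, the alpha cardiac myosin heavy chain, was at 0.377 ± 0.261 CPM in control myoblasts and at its highest, 139 ± 15.0 CPM, in knockout myotubes, and the cardiac regulator Gata4 was also highest there (68.0 CPM). Nppa, Myl7, Tbx5 and Ryr2 had group means from 0 to 0.113 CPM everywhere, and Hcn4 up to 0.292 CPM. Nkx2-5, another cardiac regulator, was at 2.38 ± 0.278 CPM in control, 6.78 ± 1.03 in overexpressor and 14.3 ± 1.95 CPM in knockout myotubes. Nppb had its highest mean, 1.82 CPM, in overexpressor myoblasts and was at 0.0252 CPM in knockout myotubes. So in knockout myotubes, where Tnni3 was highest, Nppa, Nppb, Myl7, Tbx5 and Ryr2 were at or near 0 and Hcn4 was at most 0.205 CPM. Myh6, Gata4 and Nkx2-5 were not near 0 there.

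The other thin filament genes, a list of 16 with actins, tropomyosins, nebulin and leiomodins, give the setting. Of these, 12 rose and 2 fell in knockout against control myoblasts (median log2 4.40 beside 0.0188 for all genes), where 53.0% of all genes were called, and 10 rose and 3 fell in overexpressor myoblasts, beside 40.4%. In myotubes 14 rose and none fell in the overexpressor, beside 57.1% of all genes called, and 13 rose and 1 fell in the knockout, beside 68.0%. Acta1, the adult skeletal actin, and Actc1, the cardiac actin also used by immature muscle, went opposite ways in overexpressor myoblasts: Acta1 rose (log2 0.86 ± 0.23) and Actc1 fell (log2 -1.40 ± 0.14). The tropomyosin gene Tpm3 fell in knockout myoblasts (log2 -0.56 ± 0.05), whereas Tpm2 rose by 2.15 ± 0.09 and Tpm1 by 0.38 ± 0.06.

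A pair of further lists of fibre-type genes other than troponins can be read by slow and fast identity. Of 11 slow and cardiac fibre genes, 9 rose in knockout myoblasts, beside 53.0% of all genes called (26.4% higher). In overexpressor myoblasts 3 rose and 2 fell, a share near the 40.4% of all genes called. Of 15 fast fibre genes, 11 rose and 1 fell in knockout myoblasts, and 7 rose and 2 fell in overexpressor myoblasts, beside the same shares of all genes. In myotubes 15 of 15 fast genes rose in each edited line, while of the slow genes 8 rose and 1 fell in the overexpressor and 8 rose and 2 fell in the knockout, beside 57.1% and 68.0% of all genes called in these lines. Median log2 differences in myotubes were 1.99 for fast and 1.21 for slow genes in the overexpressor and 2.64 and 1.11 in the knockout, beside -0.0374 and -0.0677 for all genes. Myl2, the slow and ventricular light chain, was at 1.26 ± 0.373 CPM in control, 39.5 ± 0.884 in overexpressor and 12.3 ± 2.30 CPM in knockout myotubes, an order it shared with Tnnt1.

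Of 21 regulators of muscle genes and fibre type, 13 rose and 2 fell in knockout myoblasts, beside 53.0% of all genes called, and 10 rose and 3 fell in overexpressor myoblasts, beside 40.4%. Mef2c, a MADS-box factor of muscle promoters, was at 0.163 ± 0.0519 CPM in control and 26.5 ± 3.32 CPM in knockout myoblasts, and Tead4, which binds MCAT motifs, at 14.9 ± 0.638 and 82.9 ± 8.49 CPM. Sox6, a repressor of slow fibre genes, was at 0.0665 ± 0.00862 CPM in control and 0.909 ± 0.267 CPM in knockout myoblasts, and at 0.132 ± 0.0750 and 1.39 ± 0.194 CPM in the myotubes of these lines. Its raw counts were near the floor, at 3 to 4 per library in control myoblasts and 2 to 10 in control myotubes. Knockout libraries held 28 to 60 and 59 to 94 counts of Sox6. Mef2c had 7 to 10 counts in control myoblasts. Nfix, a factor of the fetal fibre programme, fell in both edited lines against control myoblasts, by 1.25 on the log2 scale in the overexpressor and 1.61 in the knockout. These levels stand beside the troponin values, and any link between them was not tested.

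By the rule of likeness (Pearson r of log2 CPM over 18 libraries, among 10983 tested genes with a mean of at least 5 CPM in 1 or more groups), 2 genes were named for each member. Fast Tnnt3 was most like Casq2, a calsequestrin of the slow and cardiac list, and the calcium channel Cacna1s (r = 0.999 and 0.998). For fast Tnni2 these were the membrane repair gene Trim72 and the light chain pseudogene Mylf-ps (both 0.999). For fast Tnnc2 they were Cacna1s and Myl1, a light chain of the fast list (0.998 and 0.997). Tnni1 was most like Acta1 and Myl1 (both 0.999), and Tnnc1 most like Mybph and the slow myosin Myh7 (both 0.995). Tnnt2 was most like the myosin chaperone Unc45b (0.995) and the glycogen phosphorylase Pygm (0.994), and Tnnt1 most like Cemip (0.995) and Ctxn3 (0.994). Tnni3 had lower maxima, Inka2 (0.962) and Mlip (0.956). These coefficients describe 18 libraries from 3 lines and 2 stages, and Mylf-ps may share reads with its parent gene.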

How the data were processed

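PolyA RNA was sequenced from 18 C2C12 libraries. The authors' deposited table holds raw read counts per gene. The submitters' processing notes name STAR 2.7.9a, Subread 2.0.3 (featureCounts), FastQC 0.11.7 and DESeq2 1.32.0, with no role or order, and build mm10. Annotation release and strand setting are not given in the sources used here. A deposited table of variance-stabilised values on a log2 scale, made by the authors, served only as an alternative for the isoform ratios. From the counts, edgeR 4.0.16 (R 4.3.3) with TMM scaling, filterByExpr by group and robust quasi-likelihood fits was run on all 18 libraries together (12 residual degrees of freedom, 12 contrasts, threshold 0.05 after Benjamini-Hochberg adjustment over 17912 genes), and was tested on simulated data. GENCODE M21 named 55104 of 55450 identifiers and gave exon lengths. Isoform ratios used a pseudocount of 0.5. The members and lists were chosen with earlier results of these data known. Named genes were the members, the 2 non-member genes most like each by Pearson r, genes next to or overlapping members, Meg3, and set genes of the lists. A gene among these is not reported here. No 2 libraries agreed within sampling noise (chi-square per degree of freedom from 4.72 to 118). Other scalings, filters, the DESeq2 1.42.0 test, a replicate block, gene lengths, a pseudocount of 5 and leaving out each library were tried as alternatives. Counts limit the precision of low genes, chiefly Tnni3.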

Additional observations from a re-analysis of the deposited data

Results flagged for a closer look

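The difference in differentiation response between lines passed edgeR's interaction test for 21 of 24 gene and line pairs, which is why each is listed here. Of all 17912 genes tested, 39.0% passed for the overexpressor minus the control and 50.1% for the knockout minus the control. For the overexpressor minus the knockout 46.7% passed. The values are differences of log2 changes from myoblasts to myotubes, and the 3 line pairs share libraries. For the overexpressor minus the control they were 1.82 for Tnnt1, 2.07 for Tnnt2, 0.81 for Tnnt3, 2.26 for Tnni3 and 0.69 for Tnnc2. For the knockout minus the control they were -1.49 for Tnnt1, -1.82 for Tnnt2, -3.93 for Tnnt3, -3.71 for Tnni1, -3.63 for Tnni2, 3.64 for Tnni3, -4.21 for Tnnc1 and -3.87 for Tnnc2. For the overexpressor minus the knockout they were 3.31 for Tnnt1, 3.89 for Tnnt2, 4.74 for Tnnt3, 3.79 for Tnni1, 4.08 for Tnni2, -1.39 for Tnni3, 4.81 for Tnnc1 and 4.55 for Tnnc2. Tnni3 had the opposite sign to the other 7 members in both comparisons with the knockout. Dixon's test for a single outlying value was not run on groups of 3 libraries.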

How the results depend on the processing

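Among the 12 counts of troponin genes called, the scalings, filters, DESeq2 test and replicate block kept each within 1.5 times its value. Leaving out 1 library moved the count for the edited lines against each other in myotubes to between 4 and 7. Of the log2 differences of single genes, 1683 of those from leaving out 1 library kept direction and call, 37 lost the call, 6 gained it and 2 reversed: the difference in response of Tnni1 between overexpressor and control, not called in any case, was -0.19 without control myoblast library B and -0.13 without overexpressor myoblast library B, in a range of -0.19 to 0.31. The other settings kept 563, lost 8 and gained 5. The cause was not tested.

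Whether the letters A, B and C pair libraries is not said by the labels. In 0 of 15 pairs of groups did all same-letter correlations exceed 0.1, which cannot settle it with 3 libraries a group. With the letter as a replicate block, 5 rather than 7 genes were called between the edited lines in myotubes and 4 rather than 5 for the response of the overexpressor against the control. Permuting the isoform ratios within blocks cannot give less than 0.0278, and the ratio differences between the highest and lowest line (log2) of 0.24 and 1.64 (Tnni1/Tnni2 and Tnnc1/Tnnc2 in myotubes), 2.75 and 0.35 (Tnnt1/Tnnt3 in myoblasts and myotubes), 2.16 and 0.53 (Tnnt2/Tnnt3) and 1.29 (Tnnc1/Tnnc2 in myoblasts) had adjusted p of 0.111 to 0.127 there. Leaving out 1 library gave 0.20 to 0.30 for Tnni1/Tnni2 in myotubes, with adjusted p from 0.00952 to 0.0980, and the other 6 ratio tests past the threshold stayed past it.

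Scaling moved the median of all genes by more than 0.1: with library totals it went from -0.0374 to 0.108 for the overexpressor against the control in myotubes, from 0.0704 to -0.168 for control differentiation from -0.0752 to -0.243 for knockout differentiation, from -0.0511 to 0.135 for the response of the overexpressor against the control and from 0.0606 to 0.173 for that of the overexpressor against the knockout. With DESeq2's size factors it went to 0.0711 for the overexpressor and from -0.0677 to 0.0603 for the knockout against the control in myotubes, to 0.0372 for knockout differentiation, to 0.0596 for the response of the overexpressor and from -0.116 to 0.0369 for that of the knockout against the control. With library totals the share of genes higher among those called went from 54.0% to 37.9% for control differentiation, from 45.5% to 34.0% for knockout differentiation, from 45.8% to 57.8% for the overexpressor against the control in myotubes and from 42.7% to 61.0% for the difference in response of these lines. With DESeq2's size factors it went from 42.7% to 53.9% for the latter and from 40.4% to 52.0% for the response of the knockout against the control. Member directions held under each scaling. Isoform shares depend on gene length: 80 of 96 values with another length or none moved by more than 1 SD. Tnni3, at 11 to 28 counts in control myotubes, is the member that depth limits most.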
